A study of Mus musculus with 6 samples.

Results

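The nuclear factor kappa B (NF-kB) pathway and its direct target genes were followed in mouse myeloid-derived suppressor cells given mitochondrial DNA (mtDNA). The set was a list of 35 gene symbols, 27 of them pathway components and 8 of them target genes that are not part of the pathway. Members were the rows of the count table whose Ensembl gene ID maps to 1 of these symbols, out of 55359 rows in all. All 35 were found, and all 35 were among the 11190 genes with enough reads to be tested. The list was not made from measured values of the comparison, but it was drawn up with earlier results of these data known.

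MDSCs, as these cells are called for short, are poorly differentiated relatives of neutrophils and monocytes and are known for restraining T cells. In each of the 6 libraries the cells came from C57BL/6 bone marrow, were cultured for 4 days with 40 ng/ml GM-CSF and 40 ng/ml IL-6, and were passed through an isolation kit for the neutrophil-like PMN-MDSC subset. The 3 mtDNA libraries came from cells into which mtDNA (250 ng/ml) was transfected with a lipid reagent, and the 3 blank libraries from cells labelled as not given mtDNA. RNA was taken after 12 h. No label tells if reagent alone was added to the blank cells, so an effect of the reagent and one of the DNA cannot be told apart. Nor is it stated that each library of a group is its own mouse or culture. The p-values here therefore reflect how far these libraries scatter, and that scatter may be technical.

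NF-kB is a family of transcription factors built from the subunits RelA, c-Rel, RelB, p50 and p52. In resting cells IkB proteins hold the dimers in the cytoplasm, and in the canonical arm the IKK complex marks IkB for destruction so that RelA and c-Rel dimers enter the nucleus. In the non-canonical arm the kinase NIK, normally kept low by TRAF3 and the cIAP proteins, drives processing of p100 to p52, which pairs with RelB. Many genes of the pathway are themselves NF-kB targets, above all inhibitors that feed back on it, and in myeloid cells the pathway is known for inflammatory and survival genes. All values here are RNA levels, and the activation of NF-kB proteins was not measured.

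Promoter sequences are shown first because NF-kB binds DNA at kappa-B sites. RefSeq promoter windows of the build GRCm38.p6, from 250 bases before to 50 bases after each start, were matched to 29 of the 35 members. No window was matched for Ikbkb, Malt1, Map3k8, Nfkb1, Nfkbiz and Relb. The letters searched on both strands were GGGANNTTC and GGANNTTCC, which overlap each other in a full kappa-B site. At least 1 of the 2 stood in the windows of 8 of the 29 members (27.6%), namely Nfkb2, Nfkbia, Nfkbie, Tnfaip3, Cyld, Tnfaip2, Icam1 and Ier3, against 2053 of 27025 genes with a window (7.60%). By windows, the share was 9 of 39 (23.1%) for the members and 6.67% for all windows. Interferon response letters, GAAANNGAA on both strands, stood in windows of 2 of the 29 members (6.90%, Nfkbia and Cyld), against 9.76% of all genes. The whole window of Nfkbia, chr12:55492598-55492897 on the minus strand, holds 3 separate kappa-B matches, which begin 178, 113 and 29 bases before the start. Excerpts around a match are given for Tnfaip3 (chr10:19015401-19015459, minus strand) and Nfkbie (chr17:45555599-45555657, plus strand), inhibitors whose RNA was higher in mtDNA cells, and for Nfkb2 (chr19:46305680-46305739, plus strand) and Icam1 (chr9:21015762-21015820, plus strand), which were not called. Sequences run 5′ to 3′ on the gene's strand, and capitals mark the matched letters.
Nfkbia: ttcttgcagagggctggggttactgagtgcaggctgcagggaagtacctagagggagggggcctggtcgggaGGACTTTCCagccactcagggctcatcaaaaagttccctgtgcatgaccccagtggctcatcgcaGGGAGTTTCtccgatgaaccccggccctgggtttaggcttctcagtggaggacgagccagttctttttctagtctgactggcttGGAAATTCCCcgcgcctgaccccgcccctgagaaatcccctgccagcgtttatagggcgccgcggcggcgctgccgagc
Tnfaip3: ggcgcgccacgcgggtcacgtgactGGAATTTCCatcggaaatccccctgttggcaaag
Nfkbie: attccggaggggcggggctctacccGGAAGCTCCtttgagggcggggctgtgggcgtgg
Nfkb2: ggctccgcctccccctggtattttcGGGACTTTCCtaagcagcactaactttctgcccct
Icam1: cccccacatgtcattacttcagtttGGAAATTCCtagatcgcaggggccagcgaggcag

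Among the NF-kB genes, 14 of 35 (40.0%) were higher in mtDNA cells than in blank cells, none was lower, and 21 were not called. The 14 were Gadd45b, Tank, Nfkbie, Bcl2a1b, Birc3, Tnfaip3, Bcl2a1d, Nfkbia, Map3k8, Traf1, Nfkb1, Cyld, Rel and Birc2. Calls were made with edgeR's quasi-likelihood test at an adjusted p under 0.05, with Benjamini-Hochberg adjustment over all 11190 genes. Of all genes tested, 11.9% were called higher and 5.98% lower. Among the 6518 genes with a mean level at least that of Nfkbiz, the member with the lowest (24.7 CPM, TMM-scaled counts relative to library size), 17.2% were called higher. Without any test, the 3 mtDNA libraries all lay above the 3 blank libraries for 21 of the 35 members, and so they did for 17.9% of all genes. The median log2 fold change (mtDNA minus blank) was 0.17 over the members and -0.01 over all genes tested.

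The changes were small. Log2 fold changes of the 35 members ran from -0.08 for Ikbkb to 0.53 for Bcl2a1b. The 14 called members had a median of 0.33 and none reached a doubling, whereas the 1327 genes called higher had a median of 0.44 and 281 of them reached it. When edgeR tested for a change of more than 1.2-fold, no member passed, against 5.27% of all genes called higher.

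**Figure D1:**
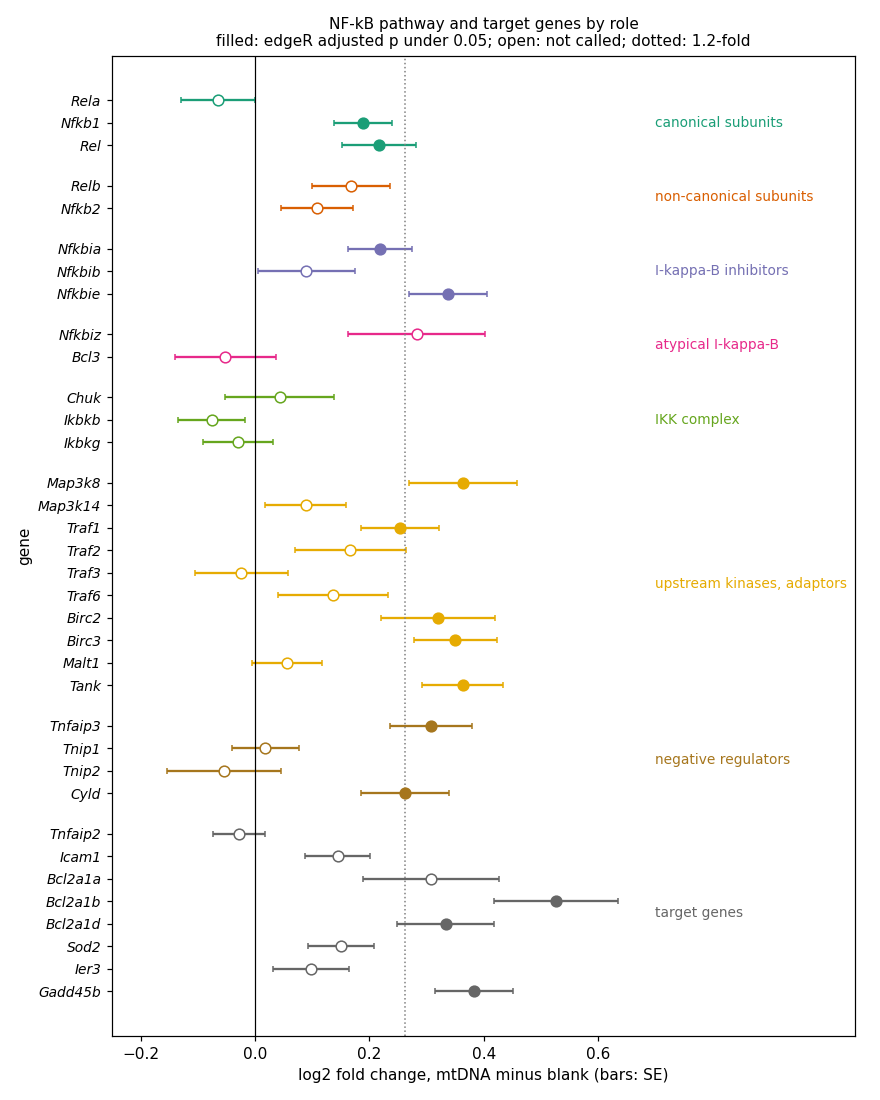
Log2 fold change (mtDNA minus blank) of each of the 35 NF-kB genes with its standard error, grouped by role. Filled points passed an edgeR adjusted p of 0.05, and the dotted line marks a 1.2-fold rise. The IKK complex sits around 0, and filled points stand among the subunits, IkB genes, upstream regulators, inhibitors and targets.

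Library totals ranged from 4144481 to 4911103 counts in mtDNA libraries and from 4018360 to 4796800 in blank libraries, and a member had 81 to 3945 reads in a library. No library stood apart: libraries of the same group correlated at 0.989 to 0.991 across genes. Levels below are in the same CPM, with which 1 read is worth 0.200 to 0.256 CPM. All 14 neutrophil marker genes were detected, with a summed level of 9061 to 9748 CPM in mtDNA libraries and 8652 to 9068 CPM in blank libraries, ranges that just overlap, and 2 of them, Ngp and Padi4, were called higher. Their levels were very uneven. Mmp8 averaged 2558 CPM in mtDNA libraries and 2545 CPM in blank libraries. Ly6g averaged only 5.81 and 4.87 CPM in the same order, and Retnlg 2.96 and 3.45 CPM, so the sum says little about these 2. The 13 monocyte and macrophage markers summed to 4715 to 4919 CPM in mtDNA libraries and 4022 to 4127 CPM in blank libraries. Of these, 6 were called higher (Ly6c2, Ccr2, Csf1r, Cd68, Ms4a7 and C1qb), 1 was called lower (Fn1), and none was at 0. Much of the rise of the sum was Ly6c2, with a mean of 968 CPM in mtDNA libraries and 538 CPM in blank libraries. Ccr2, Csf1r and Cd68 were not called with upper-quartile factors (edgeR adjusted p = 0.296, 0.445 and 0.179). The 8 dendritic cell markers summed to 755 to 762 CPM in mtDNA libraries and 720 to 734 CPM in blank libraries, with 0 of 5 tested ones called, and the 8 markers of basophils, mast cells and eosinophils to 294 to 306 CPM and 257 to 275 CPM in the same order, with Mcpt8 called higher. The sums of these last 3 lists thus moved with the NF-kB genes, and their part in the NF-kB result was not tested. Most of the dendritic sum was Itgax and Ccr7, which were not called. Lymphocyte markers (15.6 to 23.8 CPM in mtDNA libraries, 17 to 18.1 CPM in blank libraries, Ncr1 at 0), erythroid markers (0.511 to 2.12 CPM and 0.955 to 2.20 CPM) and markers of stroma and endothelium (41.6 to 42.9 CPM and 38.9 to 46.9 CPM) overlapped between the groups. In bulk RNA, fewer cells of a type and less RNA per cell cannot be told apart.

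Of the 5 DNA-binding subunits, 2 of the canonical arm rose in mtDNA cells and the other 3 were not called. Nfkb1 (ENSMUSG00000028163) encodes p105, the precursor of p50. It had 259, 259 and 257 CPM in the mtDNA libraries, against 225, 229 and 226 CPM in the blank libraries. The groups did not overlap, and the log2 fold change was 0.19 ± 0.051 (SE; edgeR adjusted p = 0.0121). Nfkb1 was not called with upper-quartile factors (edgeR adjusted p = 0.119) or library totals (edgeR adjusted p = 0.32). Rel (ENSMUSG00000020275), which encodes c-Rel, had 99.1, 101 and 99.1 CPM in mtDNA libraries and 86.9, 82.6 and 88.6 CPM in blank libraries. Here too no libraries overlapped, and the log2 fold change was 0.22 ± 0.065 (edgeR adjusted p = 0.0227). The call of Rel was lost without mtDNA library 2, mtDNA library 3 or blank library 2, with an edgeR adjusted p of up to 0.103. Rel was not called either with upper-quartile factors (edgeR adjusted p = 0.124) or library totals (edgeR adjusted p = 0.279). Rela (ENSMUSG00000024927), the main activating subunit, showed no such difference. Its level was 147, 133 and 134 CPM in mtDNA libraries and 149, 148 and 133 CPM in blank libraries, with overlapping groups and a log2 fold change of -0.06 ± 0.064. With library totals as the scale it was called lower (edgeR adjusted p = 0.0333).

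The non-canonical subunits were slightly above blank in every mtDNA library without passing the test. Relb, the partner of p52, had 89.2, 93.6 and 99.5 CPM in mtDNA libraries and 81.2, 85.0 and 85.5 CPM in blank libraries. Its log2 fold change was 0.17 ± 0.068, with an edgeR adjusted p of 0.0957. Nfkb2, which encodes p100, had 155, 174 and 155 CPM in mtDNA libraries and 142, 153 and 153 CPM in blank libraries. The gap between its groups was small, and the log2 fold change was 0.11 ± 0.063 (edgeR adjusted p = 0.268). In the GENCODE M21 annotation 18.1% of the exon bases of Nfkb2 overlap an antisense gene or Psd. Without a stated strand setting of the counting, reads of such genes and of Nfkb2 cannot be told apart.

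Among the inhibitors that retain NF-kB in the cytoplasm, 2 of 3 rose. Nfkbia (ENSMUSG00000021025) encodes IkB alpha, the classical feedback inhibitor whose promoter is printed above with 3 kappa-B matches. It had 214, 212 and 206 CPM in mtDNA libraries, against 177, 191 and 175 CPM in blank libraries, and the groups did not overlap. The log2 fold change was 0.22 ± 0.056 (edgeR adjusted p = 0.00816), and without blank library 3 the adjusted p was 0.0531. Nfkbia was not called with upper-quartile factors (edgeR adjusted p = 0.0729) or library totals (edgeR adjusted p = 0.188). Nfkbie (ENSMUSG00000023947), encoding IkB epsilon, had 91.5, 94.2 and 99.3 CPM in mtDNA libraries and 79.3, 73.1 and 73.5 CPM in blank libraries. Its groups were further apart than those of Nfkbia, with a log2 fold change of 0.34 ± 0.069 (edgeR adjusted p = 0.00109), and the difference between the genes was not tested. Nfkbib, which encodes IkB beta, had 46.9 to 50.3 CPM in mtDNA libraries and 44.3 to 49.2 CPM in blank libraries, groups that overlapped. In GENCODE M21, 16.4% of its exon bases overlap genes of the other strand, which are Ccer2, with no read in any library, and Sirt2.

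The nuclear, atypical IkB proteins were not called. Nfkbiz, which encodes the co-activator IkB zeta, was at 24.8, 27 and 29.4 CPM in mtDNA libraries and 24.2, 23.2 and 19.3 CPM in blank libraries. The groups touched without overlapping, and the log2 fold change of 0.28 ± 0.12 had an edgeR adjusted p of 0.114. Bcl3, whose product binds p50 and p52 homodimers, had 41.7 to 44.5 CPM in mtDNA libraries and 42.6 to 46.5 CPM in blank libraries, with overlapping groups.

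The kinase complex that phosphorylates IkB had no called member, and the median log2 fold change of its 3 genes was -0.03. Ikbkb, which encodes the catalytic subunit IKK beta of the canonical arm, was at 146, 144 and 137 CPM in mtDNA libraries and 153, 145 and 152 CPM in blank libraries, and it was called lower only with library totals as the scale (edgeR adjusted p = 0.0166). Chuk, encoding IKK alpha, ranged over 56.1 to 65.2 CPM in mtDNA libraries and 50.3 to 65.9 CPM in blank libraries. Ikbkg, encoding the regulatory subunit NEMO, ranged over 118 to 127 CPM in mtDNA libraries and 123 to 131 CPM in blank libraries. The groups overlapped for all 3 genes. Exons of Ikbkg overlap those of the abundant gene G6pdx over 5.15% of their length.

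Upstream of IKK, 5 of 10 kinases and adaptors rose. Tank (ENSMUSG00000064289), a TRAF-binding scaffold that also binds the kinase TBK1, had 106, 110 and 94.4 CPM in mtDNA libraries and 82.4, 76.7 and 81.9 CPM in blank libraries. Its log2 fold change was 0.36 ± 0.072 (edgeR adjusted p = 0.000789), and the lowest mtDNA library was above the highest blank library. Birc3 (ENSMUSG00000032000) encodes the ubiquitin ligase cIAP2. It had 146, 146 and 153 CPM in mtDNA libraries, against 133, 112 and 105 CPM in blank libraries, and its log2 fold change was 0.35 ± 0.072 (edgeR adjusted p = 0.00127). The blank libraries of Birc3 were more spread than its mtDNA libraries. Birc2 (ENSMUSG00000057367), encoding cIAP1, had 52.4, 55.3 and 63.7 CPM in mtDNA libraries and 49.2, 39.3 and 50.1 CPM in blank libraries. The groups came close to each other, and the log2 fold change of 0.32 ± 0.10 had an edgeR adjusted p of 0.0298. That call was lost when mtDNA library 3 or blank library 2 was left out, with an adjusted p of up to 0.189. It was also lost with upper-quartile factors (edgeR adjusted p = 0.0839) and library totals (edgeR adjusted p = 0.141).

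Map3k8 (ENSMUSG00000024235) encodes the kinase TPL2, which p105 holds inactive and which signals to ERK. It was at 41.9, 40.1 and 43.8 CPM in mtDNA libraries and 34.1, 30.9 and 32.9 CPM in blank libraries, with a log2 fold change of 0.36 ± 0.095 (edgeR adjusted p = 0.00915). Traf1 (ENSMUSG00000026875), an adaptor of TNF receptors, had 135, 115 and 118 CPM in mtDNA libraries and 101, 105 and 102 CPM in blank libraries. Its log2 fold change was 0.25 ± 0.068 (edgeR adjusted p = 0.0112), and mtDNA library 1 stood above the other two. Without that library the adjusted p was 0.0788. Traf1 was not called with upper-quartile factors (edgeR adjusted p = 0.0656) or library totals (edgeR adjusted p = 0.135). The remaining 5 were not called. Traf2, a TNF receptor adaptor, had 39.4 to 47.3 CPM in mtDNA libraries and 35.5 to 38.6 CPM in blank libraries, which did not overlap. Traf3, which targets NIK for degradation, Traf6, the ubiquitin ligase of Toll-like and IL-1 receptor signalling, Map3k14, which encodes NIK, and Malt1, the paracaspase of antigen and C-type lectin receptor signalling, overlapped between the groups and had log2 fold changes of -0.02, 0.14, 0.09 and 0.06.

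**Figure D2:**
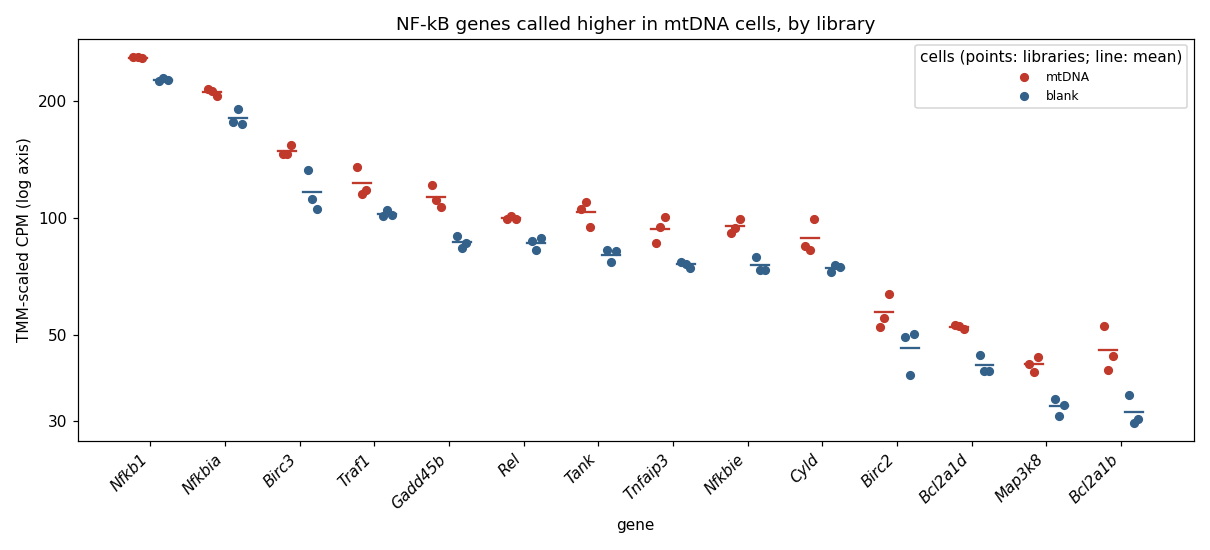
Level (CPM) in each library for the NF-kB genes called higher, with the 3 mtDNA libraries left of the 3 blank libraries for each gene. Every mtDNA library lies above every blank library in all 14 genes, with the largest fold change in Bcl2a1b.

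The negative regulators split evenly between called and not called. Tnfaip3 (ENSMUSG00000019850) encodes A20, an NF-kB-induced inhibitor of signalling upstream of IKK. It had 86.1, 94.5 and 100.1 CPM in mtDNA libraries and 77.0, 76.1 and 74.2 CPM in blank libraries, and its log2 fold change was 0.31 ± 0.071 (edgeR adjusted p = 0.00354). Cyld (ENSMUSG00000036712), a deubiquitinase, had 84.6, 82.5 and 99.3 CPM in mtDNA libraries and 72.3, 75.5 and 74.5 CPM in blank libraries. Its mtDNA library 3 stood above the other two. The log2 fold change was 0.26 ± 0.077 (edgeR adjusted p = 0.0199), and the call was lost without that library (edgeR adjusted p = 0.160) and without blank library 1 or 3. Cyld was not called with upper-quartile factors (edgeR adjusted p = 0.0868) or library totals (edgeR adjusted p = 0.175). The A20-binding proteins were not called and their groups overlapped. Tnip1 had 186 to 193 CPM in mtDNA libraries and 179 to 201 CPM in blank libraries, and Tnip2 had 36.5 to 46.7 CPM in mtDNA libraries and 41.1 to 47.3 CPM in blank libraries.

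Of the 8 target genes outside the pathway, 3 rose. Gadd45b (ENSMUSG00000015312), a stress-response gene whose product restrains JNK signalling, had the smallest p of all members. It was at 121, 111 and 106 CPM in mtDNA libraries, against 89.5, 83.6 and 86.2 CPM in blank libraries. That is a log2 fold change of 0.38 ± 0.068 (edgeR adjusted p = 0.000252). Icam1, an adhesion molecule for leukocytes, had 192, 180 and 182 CPM in mtDNA libraries and 173, 162 and 165 CPM in blank libraries. Sod2, the mitochondrial superoxide dismutase, had 182, 179 and 190 CPM in mtDNA libraries and 166, 157 and 174 CPM in blank libraries. Both had all mtDNA libraries above all blank libraries and missed the threshold, with log2 fold changes of 0.14 ± 0.057 and 0.15 ± 0.058 and edgeR adjusted p-values of 0.0850 and 0.0812. In GENCODE M21, 11.7% of the exon bases of Icam1 overlap another gene. Ier3, an immediate-early gene, had 90.7 to 95.1 CPM in mtDNA libraries and 82.9 to 89.4 CPM in blank libraries. Tnfaip2, a TNF-induced gene and the most abundant member, had 753, 791 and 745 CPM in mtDNA libraries and 761, 790 and 781 CPM in blank libraries. The groups of Tnfaip2 overlapped, and its log2 fold change was -0.03 ± 0.046 (edgeR adjusted p = 0.744, or 0.0193 with library totals as the scale).

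The 3 Bcl2a1 genes encode A1, an anti-apoptotic relative of BCL-2, in near-identical copies on chromosome 9. Bcl2a1b (ENSMUSG00000089929) had 52.6, 40.5 and 44.0 CPM in mtDNA libraries and 34.8, 29.7 and 30.3 CPM in blank libraries, with a log2 fold change of 0.53 ± 0.11 (edgeR adjusted p = 0.00124). Bcl2a1d (ENSMUSG00000099974) had 52.9, 52.7 and 51.6 CPM in mtDNA libraries and 44.3, 40.3 and 40.3 CPM in blank libraries, with a log2 fold change of 0.33 ± 0.085 (edgeR adjusted p = 0.00773). Bcl2a1a had 36.0, 30.8 and 33.4 CPM in mtDNA libraries and 24.2, 24.6 and 32.2 CPM in blank libraries. Its groups overlapped, and its log2 fold change of 0.31 ± 0.12 had an edgeR adjusted p of 0.0791, which was 0.0188 without blank library 3. How reads were split among the copies is uncertain, because in the GENCODE M21 transcripts 55.2% (Bcl2a1a), 68.4% (Bcl2a1b) and 67.6% (Bcl2a1d) of all stretches of read length, 75 bases, also occur in another gene. For Bcl2a1b that includes Gm29094, a gene model without a read in any library that covers 49.1% of its exon bases on the same strand. The coding sequences are 516 bases long, and Bcl2a1a differs from Bcl2a1b at 11 positions and from Bcl2a1d at 7, while Bcl2a1b and Bcl2a1d differ at 6 (identities of 97.9%, 98.6% and 98.8%). Of the 12 positions at which the 3 coding sequences vary, 6 fall in the first 75 bases, which are printed because a read there can be assigned to 1 copy. Capitals mark the variable positions.
Bcl2a1a: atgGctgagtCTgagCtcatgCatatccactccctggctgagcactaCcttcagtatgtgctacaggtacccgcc
Bcl2a1b: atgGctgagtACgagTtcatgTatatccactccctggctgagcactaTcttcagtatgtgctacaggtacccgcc
Bcl2a1d: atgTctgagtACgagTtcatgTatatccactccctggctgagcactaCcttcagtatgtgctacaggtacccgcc

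Set side by side, pathway components and target genes had like shares of calls with TMM factors, but not with other scalings. Of the 27 components, 11 (40.7%) rose, with a median log2 fold change of 0.17, and in 15 all mtDNA libraries were above all blank libraries. Of the 8 target genes, 3 (37.5%) rose, with a median of 0.23, and in 6 the libraries were separated in that way. Over all genes tested, 11.9% were called higher with TMM factors and 17.9% were separated in that way. Among genes with a mean level at least that of Nfkbiz, 17.2% were called higher. The 3 were Gadd45b and the near-identical copies Bcl2a1b and Bcl2a1d, and Bcl2a1a is among the 8 as well. The Bcl2a1 copies are not independent genes, so the share and median of the targets lean on them. With upper-quartile factors 5 components (18.5%) and 3 targets (37.5%) were called higher. With library totals it was 3 components (11.1%, with 2 called lower) and 2 of 8 targets (25%, with 1 called lower). With library totals 7.69% of all genes were called higher and 21.1% lower, so the share of components was near the background. No share over all genes is given for upper-quartile factors. Within the components, 7 of the 12 that are themselves known NF-kB targets rose (58.3%, median 0.22): Nfkb1, Rel, Nfkbia, Nfkbie, Tnfaip3, Traf1 and Birc3. Of the other 15 components, 4 rose (26.7%, median 0.09): Map3k8, Birc2, Tank and Cyld. Of the 8 members with kappa-B letters in a promoter window, 4 rose, and of the 21 with a window but without these letters, 8 rose. The lists are short, and no difference between their shares was tested.

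Between the arms, calls with TMM factors fell on the canonical side and on the shared regulators. In the canonical arm (Rela, Nfkb1, Rel, Nfkbia, Nfkbib, Nfkbie, Ikbkb, Ikbkg, Traf6 and Malt1) 4 of 10 genes rose, with a median log2 fold change of 0.11 that was -0.0053 with library totals. With TMM factors 11.9% of all genes were called higher. Only 1 of the 10 was called higher with upper-quartile factors. With library totals 1 was called higher and 2 lower, against 7.69% and 21.1% of all genes. In the non-canonical arm (Relb, Nfkb2, Map3k14 and Traf3) none of 4 passed edgeR's test, and the median was 0.10, or -0.020 with library totals. Of the 4 genes that serve both arms (Chuk, Traf2, Birc2 and Birc3), 2 rose, with a median of 0.24. The medians of the arms were close together, and the arms were not shown to differ.

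Ratios of read counts within a library, which do not depend on how libraries are scaled, were computed for 8 gene pairs chosen after their values were seen, and carry no test. The ratio of Nfkb1 to Rela was 1.88 ± 0.102 in mtDNA libraries and 1.58 ± 0.100 in blank libraries (SD, n = 3 each), with no overlap. Rel to Rela was 0.726 ± 0.0455 in mtDNA libraries and 0.601 ± 0.0562 in blank libraries, also apart. Relative to Rela, both other canonical subunits were higher in all mtDNA libraries than in any blank library. Nfkbia to Rela was 1.53 ± 0.0712 in mtDNA libraries and 1.26 ± 0.0659 in blank libraries, and Nfkbie to Rela was 0.691 ± 0.0615 and 0.525 ± 0.0297 in the same order, with no overlap in either. Tnfaip3 to Ikbkb was 0.659 ± 0.0700 in mtDNA libraries and 0.506 ± 0.0189 in blank libraries, and Birc3 to Traf3 was 2.11 ± 0.0409 and 1.64 ± 0.325, both without overlap. Each of these separated pairs sets a gene already called higher over a gene that was not called. Their separation was thus largely fixed by the choice of pairs and adds no further support to the calls. The pairs with a non-canonical subunit overlapped between the groups. These pairs do not set the arms on a like footing, because Nfkb2 was set over Nfkb1, itself called higher. For Relb to Rela the mtDNA mean was 1.17 times the blank mean, near the 1.19 times of Nfkb1 to Rela. A difference between the arms cannot be read from them. Relb to Rela was 0.685 ± 0.0701 in mtDNA libraries and 0.586 ± 0.0495 in blank libraries, and Nfkb2 to Nfkb1 was 0.623 ± 0.0417 in mtDNA libraries and 0.659 ± 0.0250 in blank libraries.

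**Figure D3:**
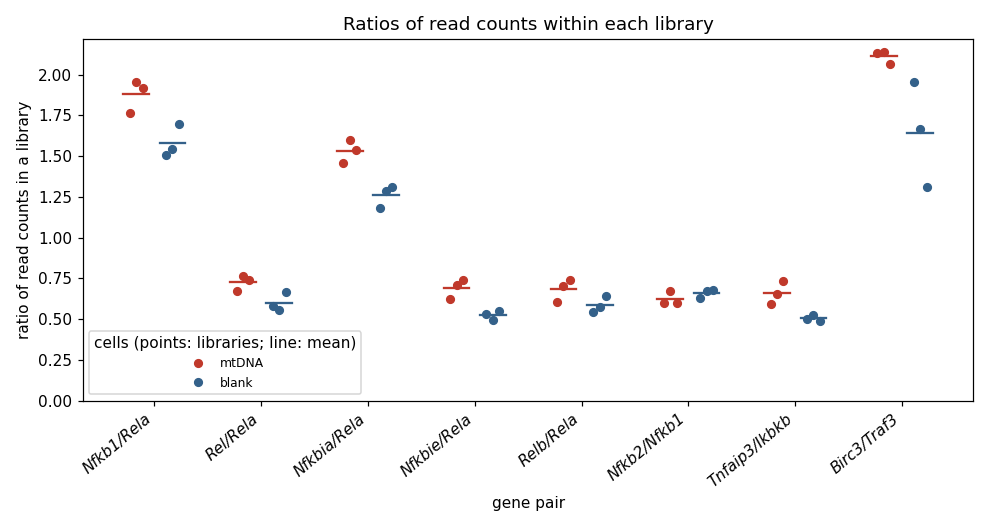
Ratio of read counts of 2 NF-kB genes within each library, with the 3 mtDNA libraries left of the 3 blank libraries for each pair and a bar at the group mean. Mean Nfkb1 to Rela is 1.88 in mtDNA libraries and 1.58 in blank libraries. The groups overlap for Nfkb2 to Nfkb1 and for Relb to Rela. Pairs were chosen after their values were seen.

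Levels of different genes were compared as CPM per kilobase of merged exons. Tnfaip2 was the most abundant member, with 153 ± 4.96 CPM per kilobase in mtDNA cells and 156 ± 3.01 in blank cells (SD, n = 3 each). Nfkbia followed with 131 ± 2.64 in mtDNA cells and 112 ± 5.34 in blank cells, then Ier3 with 81.6 ± 2.17 and 76.2 ± 2.87, and Gadd45b with 71.0 ± 4.87 and 54.4 ± 1.86, each pair in the same order. These 4 kept the first 4 places in blank cells whether merged exons or the longest transcript gave the length. The places of neighbours further down depend on that choice, because genes such as Ikbkb, Malt1 and Nfkb1 have merged exons far longer than any 1 transcript. Among the subunits Rela led with 44.9 ± 2.57 CPM per kilobase in mtDNA cells and 46.8 ± 2.90 in blank cells by merged exons, whereas by longest transcript Nfkb1 led with 62.3 in mtDNA cells and 54.7 in blank cells. Nfkbiz was lowest by both lengths, at 5.39 ± 0.462 CPM per kilobase of merged exons in mtDNA cells and 4.44 ± 0.517 in blank cells. The summed level of the non-canonical subunits divided by that of the canonical subunits was 0.746 ± 0.0547 in mtDNA libraries and 0.704 ± 0.0454 in blank libraries per kilobase of merged exons, and the groups overlapped.

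**Figure D4:**
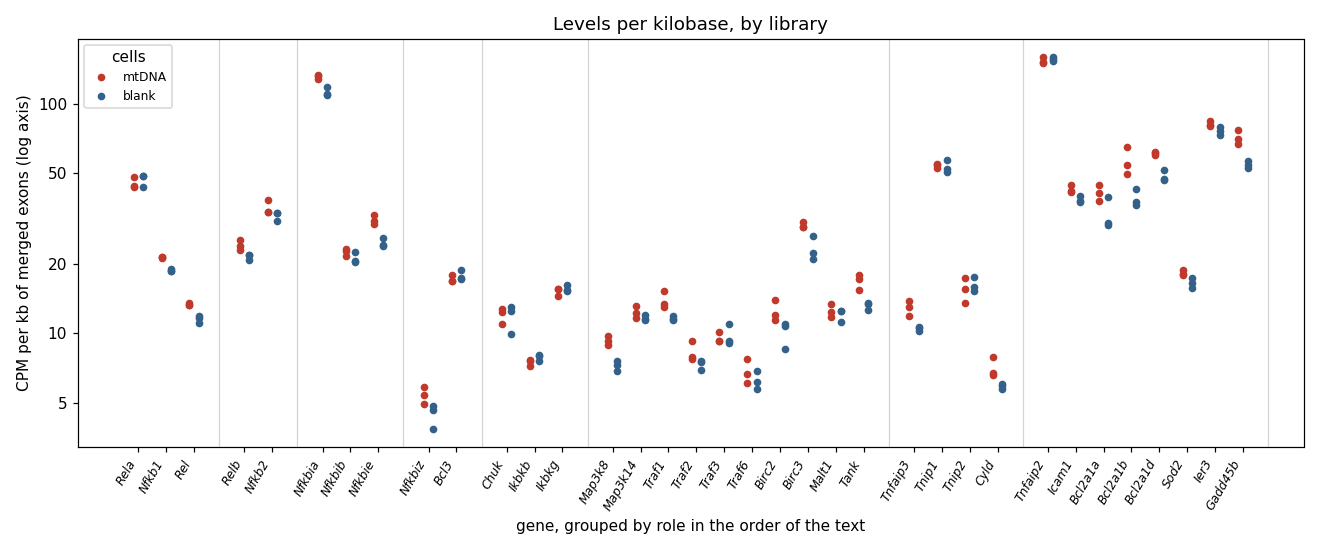
Level of each NF-kB gene in every library as CPM per kilobase of merged exons, on a logarithmic axis, mtDNA libraries beside blank libraries. Tnfaip2, Nfkbia, Ier3 and Gadd45b are the highest in blank cells and Nfkbiz is the lowest, at 4.44 in blank cells.

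The wider pathway was read from textbook lists that share no gene with the members. Of 18 receptors and receptor adaptors, 9 rose and 2 fell (median log2 fold change 0.21). By the same test 11.9% of all genes were called higher and 5.98% lower. Myd88, the adaptor of Toll-like receptors, was at 238 ± 11.7 CPM in mtDNA cells and 167 ± 5.98 CPM in blank cells (SD, n = 3 each), a log2 fold change of 0.51 (edgeR adjusted p = 4.77e-07). Tlr9, the endosomal receptor for unmethylated CpG DNA, was at 41.7 ± 2.39 CPM in mtDNA cells and 21.8 ± 1.29 CPM in blank cells, a log2 fold change of 0.93 (edgeR adjusted p = 5.42e-07). Tnfrsf1b, TNF receptor 2, had a log2 fold change of 0.43 and rose as well (edgeR adjusted p = 5.25e-07). The IL-1 receptor gene Il1r1 fell by 0.35 and the kinase gene Irak1 fell by 0.18 (edgeR adjusted p = 0.0335 and 0.0450), but DESeq2 gave adjusted p-values of 0.182 and 0.185 for them.

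Of 16 further kinases and ubiquitin ligases, 6 rose and 1 fell (median 0.17). Azi2, a TBK1 adaptor related to Tank in function, rose by 0.88, Peli1, an E3 ligase, by 0.88, and Rnf31, the catalytic subunit of the linear ubiquitin ligase, by 0.78 (edgeR adjusted p = 1.28e-08, 2.24e-07 and 5.06e-07). Card9, the adaptor of C-type lectin receptors, fell by 0.34 (edgeR adjusted p = 0.000325). Of 11 further inhibitors 2 rose and none fell by edgeR's test (median 0.10): Tnip3, another A20-binding protein, by 0.41 and N4bp1 by 0.30 (edgeR adjusted p = 8.1e-05 and 0.00117). That share is near the 17.2% called higher among genes with a mean level at least that of Nfkbiz. Over all genes tested it was 11.9%.

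Other known NF-kB targets included larger changes. Of 30 listed, 29 were tested (Cxcl1 was not), 17 rose (58.6%) and 1 fell, against 11.9% and 5.98% of all genes. The median log2 fold change was 0.34, against 0.23 for the 8 member targets, which include the near-identical Bcl2a1 copies. Irf1, an interferon-regulated transcription factor, was at 212 ± 7.42 CPM in mtDNA cells and 79.3 ± 5.02 CPM in blank cells (SD, n = 3 each), a log2 fold change of 1.42 (edgeR adjusted p = 1.07e-13). The chemokine Ccl4 was at 123 ± 18.1 CPM in mtDNA cells and 59.4 ± 2.23 CPM in blank cells, and the growth factor Csf1 at 339 ± 22.3 CPM in mtDNA cells and 216 ± 6.41 CPM in blank cells. Their log2 fold changes were 1.04 and 0.65 (edgeR adjusted p = 6.15e-09 and 1.01e-08). The neutrophil chemokine Cxcl3 fell, with a log2 fold change of -0.50 (edgeR adjusted p = 0.00146). Irf1 and other genes of this list are also known targets of interferon signalling, and the difference between the lists was not tested.

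The count of NF-kB genes called depends on how libraries are scaled. With library totals in place of TMM factors the median over all genes moved to -0.13, 5 members were called higher and 3 lower, against 7.69% and 21.1% of all genes. The 5 were Nfkbie, Birc3, Tank, Bcl2a1b and Gadd45b, and the 3 called lower were Rela, Ikbkb and Tnfaip2, with log2 fold changes of -0.18, -0.19 and -0.15 on that scale. All 3 were close to that median and were not called with TMM factors. With upper-quartile factors the median over all genes was -0.09 and 8 members were called higher: the same 5 with Map3k8, Tnfaip3 and Bcl2a1d. No share over all genes is given beside that count. With DESeq2, 9 members were called higher, against 8.64% of all genes, and Rel, Map3k8, Birc2, Cyld and Bcl2a1d were not. Gadd45b, Tank, Nfkbie, Birc3 and Bcl2a1b passed under every alternative run except the test for more than 1.2-fold. Leaving out 1 library left 11 to 13 members called higher.

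**Figure D5:**
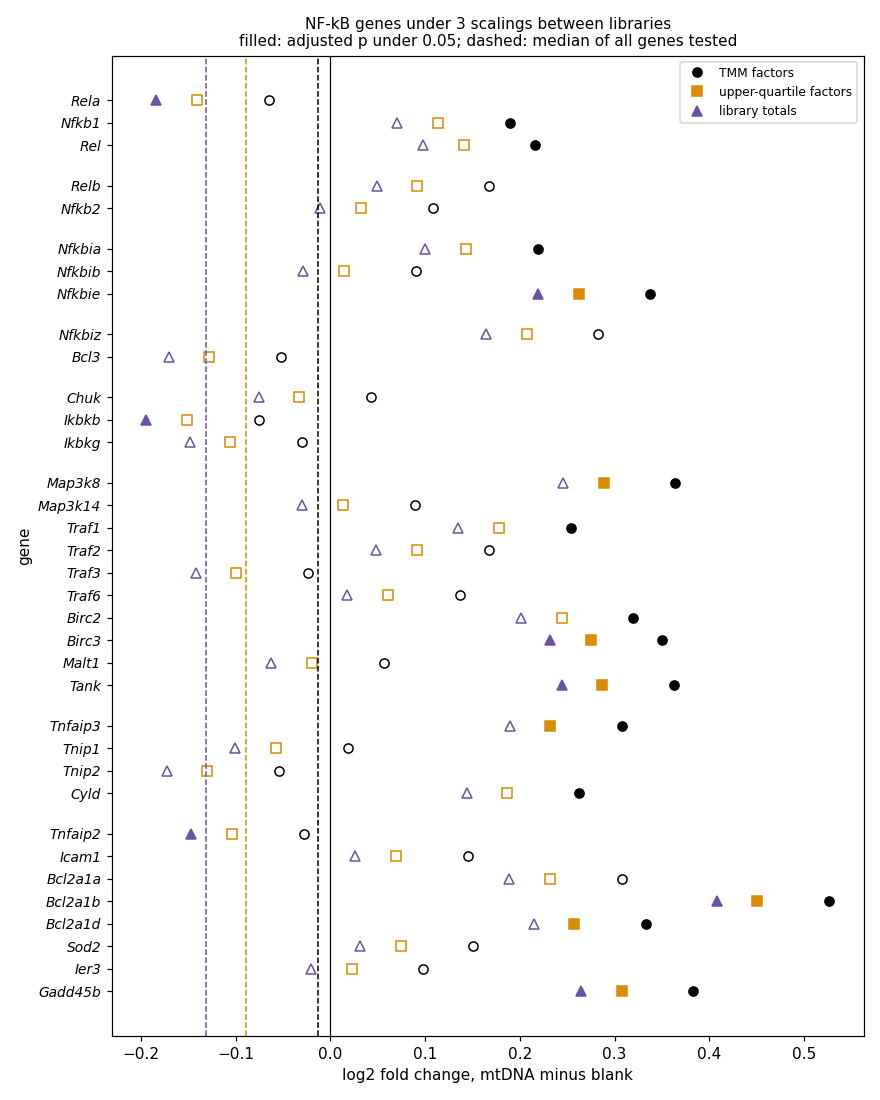
Log2 fold change (mtDNA minus blank) of each NF-kB gene under TMM factors, upper-quartile factors and library totals, with filled points for an edgeR adjusted p under 0.05. Other scalings shift all genes to the left together: 14 are called higher with TMM factors, 8 with upper-quartile factors and 5 with library totals.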

How the data were processed

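Poly(A) RNA of 6 mouse MDSC libraries (3 mtDNA, 3 blank) was made into directional libraries and read from 1 end over 75 bases, as the labels' protocols state. The deposited values are raw read counts per Ensembl gene ID, with no normalization by the authors, in 1 table; its columns are named after the gene count files that STAR writes, per the file headers. The submitters' processing notes name FastQC, STAR 2.7.10a, DESeq2 and the build GRCm39. Which annotation was used, and whether counting used strand, is not given in the sources used here. By default STAR counts only uniquely mapped reads per gene, so near-identical genes can lose reads.

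Symbols came from GENCODE M21 names, which matched 52083 of 55359 IDs. That annotation and the RefSeq windows are of GRCm38, so they served for names, lengths, overlaps and printed sequences, not to count reads.

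Groups came from the treatment label. The 6 libraries were fitted with edgeR 4.0.16 (R 4.3.3): default expression filter, TMM factors, quasi-likelihood test, two-sided, Benjamini-Hochberg adjustment over 11190 genes, threshold 0.05. The coefficient of variation between libraries, which edgeR calls biological, was 4.54%. Standard errors were derived from each fold change and its F value. Totals of 4018360 to 4911103 counts make 3 counts worth 0.601 to 0.767 CPM. Libraries of a group differed by more than counting noise (1.54 to 2.28 times the chi-square that counting alone gives), and each was counted as 1 sample. Separate library preparations from 1 culture could differ in this way too, so this does not show separate cultures or mice. The procedure was also run on simulated counts, with changes larger than those of any member. That run cannot speak for changes as small as these, or for the choice of scaling. Alternatives were other scalings and filters, DESeq2 1.42.0, limma-voom (limma 3.58.1), a test for more than 1.2-fold, neighbouring library numbers as a block, and leaving out each library.

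The members and lists were chosen with earlier results of these data known. All 35 members are named. From each further pathway list up to 3 genes called higher and up to 3 called lower with the smallest p are named. Further choices were added after the data were seen: the longest transcript as length, the background of genes at or above the lowest member, and the count ratios. No set test was run.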

Additional observations from a re-analysis of the deposited data

How the results depend on the processing

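Median-ratio factors, no filter, a filter of 1 CPM in every library and limma-voom gave 14 NF-kB genes called higher, as in the main fit with TMM factors, and so did the fit with neighbouring library numbers as a block, although the numbers did not pair the libraries (correlations of 0.0404 to 0.0449). Over all genes, 3217 were called with library totals, 1184 with DESeq2 and 645 in the test for more than 1.2-fold, and 861 and 590 were called higher with library totals and in the 1.2-fold test. NF-kB genes called higher numbered 8 with upper-quartile factors, 5 with library totals (3 lower), 9 with DESeq2 and 0 in the 1.2-fold test, of which components were 5, 3, 7 and 0. Canonical genes called higher numbered 1, 1 and 0 with upper-quartile factors, library totals and the 1.2-fold test, and target genes 3, 2 and 0. The median log2 fold change with upper-quartile factors and with library totals was 0.091 and 0.048 for all members and for components, 0.15 and 0.11 for targets, 0.037 and -0.0053 for the canonical arm, and 0.023 and -0.020 for the non-canonical arm. These scalings moved the median of all genes to -0.09 and -0.13. Leaving out 1 library left 11 to 13 members called higher, 8 to 10 components, 3 to 4 targets and 3 to 4 canonical genes. Medians then ranged from 0.13 to 0.19 for members, 0.13 to 0.18 for components, 0.18 to 0.25 for targets, 0.071 to 0.14 for the canonical arm and 0.045 to 0.13 for the non-canonical arm.

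The genes that changed sign were not called in the main fit. With library totals Nfkb2 was at -0.011, Nfkbib at -0.029, Chuk at -0.076, Map3k14 at -0.030, Malt1 at -0.062, Tnip1 at -0.10 and Ier3 at -0.020, and with upper-quartile factors Chuk was at -0.033, Malt1 at -0.019 and Tnip1 at -0.057. Leaving out 1 library gave ranges of -0.078 to 0.12 for Chuk, -0.075 to 0.063 for Traf3, -0.013 to 0.069 for Tnip1 and -0.14 to 0.021 for Tnip2. With the length of the longest transcript, chosen after seeing the data, the ratio of non-canonical to canonical subunits was 0.559 in mtDNA libraries and 0.542 in blank libraries. Reads limit the lowest members most, Nfkbiz among them with as few as 81 reads in a library. The cause of these changes was not tested.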
